A study of Mus musculus with 9 samples.

Results

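The genes described here were 10 that mark mast cells and basophils: Fcer1a, Ms4a2, Fcer1g, Cpa3, Gzmb, Mcpt8, Prss34, Hdc, Il1rl1 and Lmo4. They were found by symbol in the table of gene counts, and all 10 had a row among the 35275 gene identifiers. The table held 9 RNA-seq libraries of megakaryocyte-erythroid progenitors (MEPs) from mouse bone marrow, sorted as lineage-negative, c-kit+, CD34-, FcγRII/III-low cells, with 25000 cells per library and a low-input protocol. All 9 libraries came from cells stained with a single-chain antibody (scFv). HS3A8, an scFv against heparan sulfate, a sulfated sugar chain of the cell surface, split the MEPs at the middle of its staining into HS3A8-high (3 libraries) and HS3A8-low (3 libraries). MPB49, an scFv that does not bind heparan sulfate, gave the mock-sorted control (3 libraries), which stands for total MEPs. Mice were matched for age and sex and carried no allele or treatment named for these libraries. The sources give individual mice as replicates but neither their strain nor whether the fractions of a replicate number came from the same mouse, so p-values measure the spread between these libraries.

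Mast cells and basophils are granulocytes that store histamine and proteases and carry the high-affinity receptor for IgE, FcεRI. Its α chain (Fcer1a) binds IgE, its β chain (Ms4a2) amplifies the signal, and its γ chain (Fcer1g) carries the activation motif and also serves FcγRIII and other receptors on myeloid cells and platelets. Both lineages need the transcription factor GATA2, which MEPs also use, and progenitors with mast cell or basophil potential have been found close to the erythroid and megakaryocytic branch. Whether their transcripts are present in MEPs, and in which HS3A8 fraction, was the question of the comparisons below.

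Levels are given as CPM, a gene's counts relative to the total of its library adjusted by the TMM factors of the 9 libraries, and, between genes, as CPM per kb of exon (RPKM). Library totals were 11781637 to 15850037 counts, so that a count of 0 allows up to 3 counts, or 0.175 to 0.282 CPM; this limit covers counting error only. MEP identity was checked by the RNA of selected genes. Gata1, the erythroid and megakaryocytic transcription factor but not a marker of the gate, was at 368 to 515 CPM in all 9 libraries. Kit, which the gate selects for, was at 382 to 796 CPM in all 9. Cd34, whose protein the gate excludes, was not absent as RNA, with a mean of 30.7 CPM over the 9 libraries. Its levels in the HS3A8 fractions are given below. Ly6a, which encodes the stem cell marker Sca-1, had a mean of 1.49 CPM. Both replicate 3 libraries of the HS3A8 sort stood apart from the rest. In them a list of 18 granulocyte and monocyte genes summed to 2044 CPM (HS3A8-high) and 5254 CPM (HS3A8-low), against 12.9 to 306 CPM in the other 7 libraries, and Fcgr3, which encodes the FcγRIII of the gate, was at 17.8 and 43.9 CPM against 0.147 to 2.25 CPM. Results that rest on these 2 libraries are therefore given with and without them.

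The 10 genes fell into 3 patterns. Cpa3, Lmo4, Fcer1g and Gzmb were higher in HS3A8-low than in HS3A8-high MEPs within every replicate number. Mcpt8 and Prss34, proteases of basophils, and Fcer1a, of mast cells and basophils, were at or near 0 in 6 of 9 libraries. They appeared in both replicate 3 libraries and in control replicate 1, and Hdc followed them in part. These 3 genes were grouped by this pattern, which Ms4a2, the other chain found mainly in mast cells and basophils, did not share. Il1rl1 was at a similar level in all 9 libraries, and Ms4a2 was low in all of them. Hdc and Ms4a2 were also higher in HS3A8-low within every replicate number, so this trait is not particular to the first pattern. The share of all genes with this trait was not counted. Per kb of exon, the mean level over the 9 libraries was highest for Fcer1g (24.8 RPKM), then Il1rl1 (12.6 RPKM) and Prss34 (11.3 RPKM), and lowest for Ms4a2 (0.595 RPKM). The replicate 3 libraries of HS3A8-high and HS3A8-low weighed on this order. Fcer1g was at 34.9 and 114 RPKM in them and at 0.947 to 21.6 RPKM in the rest. Prss34 was at 32.6 and 61.2 RPKM there and at 0 to 7.48 RPKM in the rest. Il1rl1 was at 10.4 to 16.7 RPKM in all 9. Of the members, 5 had at least 1 count in every library, and Fcer1a and Prss34 had none in 5 libraries each.

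**Figure D1:**
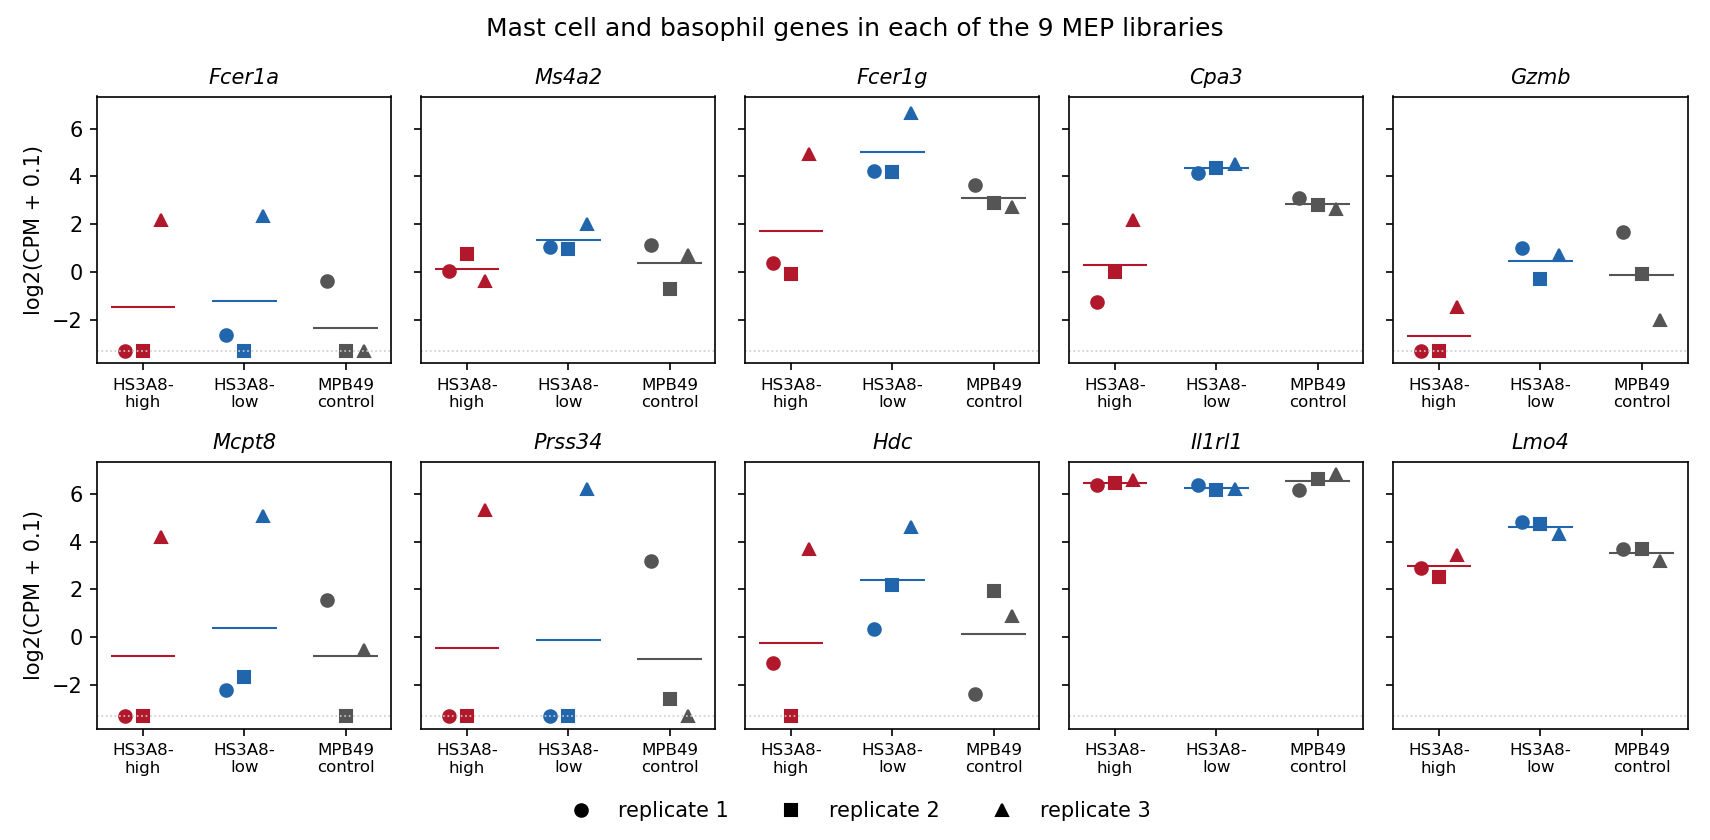
Level of each of the 10 genes in the 9 MEP libraries, as log2 of CPM plus 0.1 on the vertical axis, by group (colours) and replicate number (symbols), with the group mean as a line and a dotted line at 0 CPM. Cpa3 and Lmo4 separate the 2 HS3A8 fractions in all libraries, Mcpt8 and Prss34 stand high in the replicate 3 triangles of both fractions, and Il1rl1 stays between 71.6 and 115 CPM.

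To show the regulatory sequence of 1 gene of each pattern, the 250 bases upstream of the RefSeq start (build GRCm38.p6) are given 5′ to 3′ on the gene's strand for Cpa3 (chr3:20242182-20242431, minus strand), Prss34 (chr17:25298144-25298393, plus strand) and the upstream start of Il1rl1 (chr1:40429320-40429569, plus strand). Capitals mark GATA words (AGATAA or the same word ending in G, each also with T as its first letter, on either strand), the letters that GATA factors read, and E-box words (CANNTG), the letters of helix-loop-helix factors such as MITF.
Cpa3: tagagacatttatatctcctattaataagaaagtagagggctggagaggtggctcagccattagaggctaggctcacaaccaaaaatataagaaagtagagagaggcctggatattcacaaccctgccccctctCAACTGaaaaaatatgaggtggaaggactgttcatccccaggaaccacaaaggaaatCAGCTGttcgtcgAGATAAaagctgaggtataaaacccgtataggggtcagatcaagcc
Prss34: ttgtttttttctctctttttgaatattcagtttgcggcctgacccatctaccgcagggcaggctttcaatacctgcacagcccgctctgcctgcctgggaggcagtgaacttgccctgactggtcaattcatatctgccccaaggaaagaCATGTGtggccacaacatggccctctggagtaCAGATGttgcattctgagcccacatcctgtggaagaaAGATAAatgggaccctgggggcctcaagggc
Il1rl1: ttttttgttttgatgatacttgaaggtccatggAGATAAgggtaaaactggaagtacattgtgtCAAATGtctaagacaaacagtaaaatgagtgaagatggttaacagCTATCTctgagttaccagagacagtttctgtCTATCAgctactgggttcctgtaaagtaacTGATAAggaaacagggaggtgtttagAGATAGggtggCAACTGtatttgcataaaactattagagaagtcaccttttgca
Cpa3 had 1 GATA word, at position -46 from the start, Prss34 had 1, at -31, and Il1rl1 had 5, and each of the 3 had 2 E-box words. No capital stretch belongs to both kinds of word. A GATA word was present in 26.5% of 32851 RefSeq promoter windows of this length and an E-box word in 66.2%. RefSeq lists 13 starts for the 10 genes, of which 7 held a GATA word and 11 an E-box word, and 6 of the 10 genes had a GATA word at any start. Counts per gene do not separate the 2 starts of Il1rl1, and matches of letters are a description of sequence, not of binding.

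Cpa3 (chr3:20215620-20242181), carboxypeptidase A of the mast cell granule and an early gene of mast cell progenitors, had the largest contrast among the members with counts in every library. HS3A8-high libraries had 0.314, 0.903 and 4.43 CPM, HS3A8-low libraries 17.5, 20.6 and 23.0 CPM, and the control 8.37, 6.95 and 6.16 CPM. No group overlapped another, with the control between the fractions. In bulk libraries such as these, fewer cells of a type and less RNA per cell cannot be told apart. Within replicate numbers 1, 2 and 3, Cpa3 was 55.9, 22.8 and 5.20 times as high in HS3A8-low as in HS3A8-high. The quasi-likelihood test of edgeR without a block gave a log2 fold change of HS3A8-high over HS3A8-low of -3.46 (SE 0.82), with a Benjamini-Hochberg adjusted p of 0.0704. With the replicate number as a block, which takes same-numbered libraries as pairs, the value was -3.85 (SE 0.60) and the adjusted p 0.0180. The sources do not state this pairing. Without both replicate 3 libraries the log2 fold change was -5.00 (SE 0.46), with an adjusted p of 0.0040.

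Lmo4 (chr3:144188530-144205220), a LIM-only cofactor of transcription complexes found in several hematopoietic cells, was the member that passed the test without a block. It had 7.47, 5.72 and 10.6 CPM in HS3A8-high, 28.1, 26.8 and 20.0 CPM in HS3A8-low, and 12.9, 12.9 and 9.10 CPM in the control. HS3A8-low did not overlap either of the other groups, while HS3A8-high and the control overlapped. The log2 fold change of HS3A8-high over HS3A8-low was -1.68 (SE 0.28, edgeR, adjusted p = 0.0297) and, blocked, -1.70 (SE 0.28, adjusted p = 0.0203). The call without a block was lost when any replicate 1 or replicate 2 library of the 2 fractions was left out, with an adjusted p of up to 0.141.

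Fcer1g (chr1:171229572-171234365), the shared γ chain of FcεRI and other Fc receptors, had 1.19, 0.827 and 30.5 CPM in HS3A8-high, 18.9, 17.9 and 99.9 CPM in HS3A8-low and 12.2, 7.33 and 6.53 CPM in the control. Its level in HS3A8-high replicate 3 was above those of HS3A8-low replicates 1 and 2, so the fractions overlapped, although it was higher in HS3A8-low by 15.8, 21.7 and 3.28 times within replicate numbers 1, 2 and 3. The unblocked log2 fold change was -2.10 (SE 1.35, edgeR, adjusted p = 0.450), the blocked one -2.95 (SE 0.50, adjusted p = 0.0223), and without both replicate 3 libraries it was -4.17 (SE 0.32, adjusted p = 0.0029). The 2 libraries with the highest Fcer1g were also the 2 with the highest Fcgr3, whose receptor needs the same chain, and its part in the result was not tested.

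Gzmb (chr14:56258838-56262260) encodes granzyme B, a protease of cytotoxic lymphocytes that mast cells and basophils can also hold. It had 0, 0 and 0.265 CPM in HS3A8-high, 1.93, 0.703 and 1.51 CPM in HS3A8-low and 3.10, 0.829 and 0.147 CPM in the control, from at most 33 counts. Both fractions were separate and the control spanned the range of HS3A8-low. The level was at least 10.3 times (replicate 1) and at least 3.11 times (replicate 2) higher in HS3A8-low, set against 3 counts, and 5.72 times in replicate 3, where HS3A8-high had 4 counts. Its adjusted p was 0.105 without and 0.0566 with the block (edgeR). Of 14 genes of T and NK cells, which also use Gzmb, 12 were tested in edgeR. It called 2 without the block and 4 with it, DESeq2 called 3 and voom 6, all higher in HS3A8-low. Over all genes, edgeR called 3.82% without and 11.6% with the block, DESeq2 8.87%, and voom 1490 of 11791. Of these, 3.21%, 8.27%, 6.67% and 1063 genes were higher in HS3A8-low. The summed level of the 14 genes was 4.14 to 42.5 CPM in HS3A8-high, 158 to 186 CPM in HS3A8-low and 44.2 to 117 CPM in the control. Cd3e, which defines T cells, had no count in 2 HS3A8-high libraries and was at 0.147 to 1.69 CPM in the other 7. The part of these cells in the Gzmb values was not tested.

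Of the 10 genes, 7 passed the count filter for this comparison and 1, Lmo4, was called, higher in HS3A8-low, where 3.82% of the 11791 genes tested were called and 3.21% were called higher in HS3A8-low. The blocked fit called Cpa3, Lmo4 and Fcer1g, where it called 11.6% of genes and 8.27% higher in HS3A8-low. Without both replicate 3 libraries the same 3 genes were called, where 6.29% of genes were called and 6.01% higher in HS3A8-low. DESeq2 called Cpa3, Lmo4 and Gzmb, where it called 8.87% of genes and 6.67% higher in HS3A8-low. The libraries of 4 of the 10 genes (Cpa3, Lmo4, Gzmb and Ms4a2) did not overlap between the fractions, all 4 higher in HS3A8-low, against 21.3% of 18658 genes with a count in any library, and 11.8% higher in HS3A8-low. Several lists differed between the fractions beside Cpa3, Lmo4 and Fcer1g. Of 10 genes of stem and multipotent progenitors, 9 were tested and 3 were called higher in HS3A8-low, with sums of 16.8 to 32.9 CPM in HS3A8-high, 181 to 220 CPM in HS3A8-low and 95.8 to 153 CPM in the control. Of 12 megakaryocyte genes, 10 were tested and 4 were called higher in HS3A8-low, and their sums were 75.5 to 112 CPM, 229 to 432 CPM and 183 to 313 CPM in the 3 groups. The summed level of 11 erythroid genes lay the other way. All 11 were tested, 7 of them with a log2 fold change above 0 and 4 below, and edgeR called Car1, a carbonic anhydrase of early red cells, higher in HS3A8-high (log2 fold change 0.36, SE 0.05, adjusted p = 0.0257), and 5 with the block, all higher in HS3A8-high. The list summed to 14443 to 15255 CPM in HS3A8-high, 10986 to 12336 CPM in HS3A8-low and 13235 to 14280 CPM in the control. These sums rest mainly on Car1 and Car2, whose means over the 9 libraries were 4954 and 5305 CPM. The next highest gene of the list, Ermap, had a mean of 854 CPM. Cd34, absent by the gate from the surface of these cells, was at 0.827 to 11.0 CPM in HS3A8-high and 28.1 to 73.7 CPM in HS3A8-low. The part of these cells in the 3 results was not tested.

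**Figure D2:**
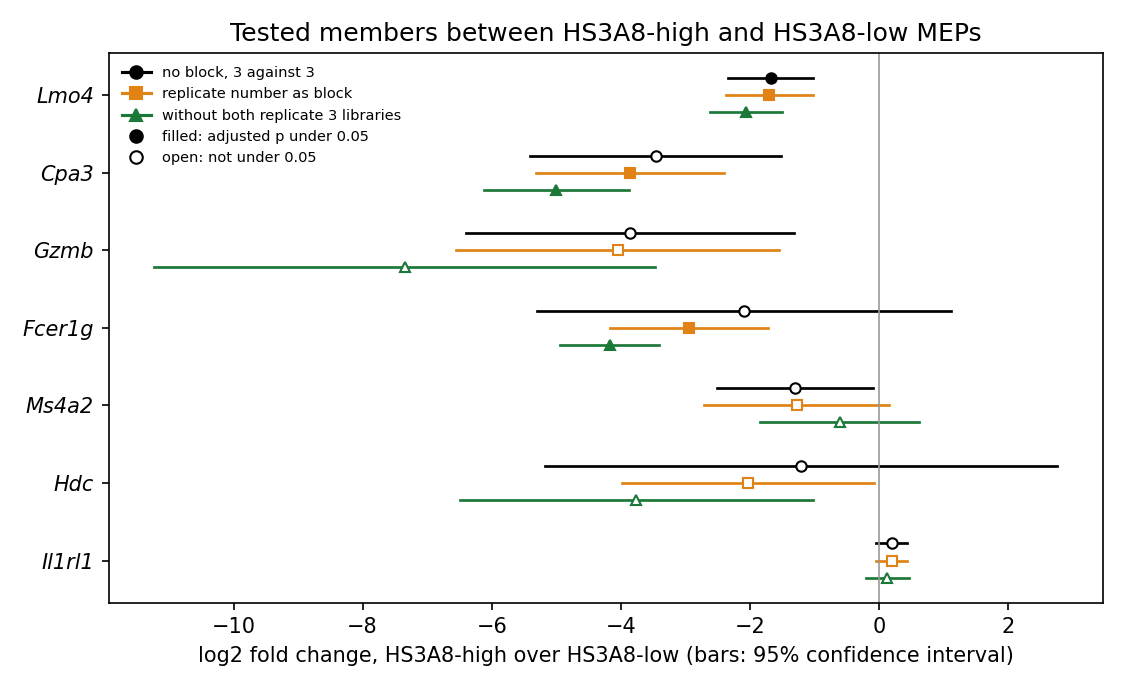
Log2 fold change of HS3A8-high over HS3A8-low for the 7 members that passed the count filter (horizontal axis, edgeR) with 95% confidence intervals as bars, for the fit without a block, with the replicate number as a block and without both replicate 3 libraries. Filled symbols have an adjusted p under 0.05: Lmo4 in all 3 fits, and Cpa3 and Fcer1g in the latter 2.

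Mcpt8 and Prss34 are serine proteases of basophils, Mcpt8 being their usual marker in the mouse. Mcpt8 (chr14:56082166-56085273) had 0, 0 and 18.5 CPM in HS3A8-high, 0.117, 0.211 and 34.2 CPM in HS3A8-low and 2.82, 0 and 0.587 CPM in the control. Prss34 (chr17:25298394-25300165) had 0, 0 and 39.7 CPM, 0, 0 and 74.7 CPM, and 9.12, 0.0638 and 0 CPM. Fcer1a (chr1:173221284-173227214), whose product binds IgE, had 0, 0 and 4.43 CPM, 0.0585, 0 and 4.96 CPM, and 0.658, 0 and 0 CPM. For each of these 3 genes, replicate 3 held at least 98.8% of the summed level of each HS3A8 fraction. Control replicate 1 held the next highest value of each, from 97 counts of Prss34, 30 of Mcpt8 and 7 of Fcer1a.

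Between the fractions of replicate 3, Mcpt8 was 1.85 times, Prss34 1.88 times and Fcer1a 1.12 times as high in HS3A8-low. These 3 genes did not pass the count filter and were not tested. Without that filter the log2 fold changes of HS3A8-high over HS3A8-low were -0.89 (SE 2.04) for Mcpt8, -0.90 (SE 2.23) for Prss34 and -0.15 (SE 1.93) for Fcer1a, with adjusted p of 0.853 to 0.986 (edgeR), and the 95% confidence interval of Mcpt8 ran from -5.51 to 3.74. In replicates 1 and 2 both fractions were at or under 3 counts for all 3 genes. The ratio of Mcpt8 to Prss34 counts was 0.466 in HS3A8-high replicate 3, 0.458 in HS3A8-low replicate 3 and 0.309 in control replicate 1.

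Markers of other granulocytes moved with these genes in part. Mpo, myeloperoxidase of neutrophils and monocytes and the most abundant gene of the granulocyte and monocyte list, was at 712 and 1608 CPM in the HS3A8-high and HS3A8-low replicate 3 libraries and at 2.48 to 133 CPM in the other 7. Prg2, a granule protein of eosinophils, was at 111 CPM in HS3A8-low replicate 3 and at most 3.97 CPM elsewhere. In control replicate 1 the order was another: the summed level of Fcer1a, Mcpt8 and Prss34 was 12.6 CPM and Mpo was at 20.5 CPM, the lowest of the control. Their ratio there was 0.615, against 0.0880 and 0.0708 in the replicate 3 libraries. All 18 granulocyte and monocyte genes were detected in both replicate 3 libraries of the fractions, 12 of 18 were tested between the fractions, of which edgeR called 0 without the block (0 at an unadjusted p under 0.05, 0 with DESeq2 and 0 with voom) and 7 with it, all higher in HS3A8-low. Of 8 eosinophil genes, 7 and 8 were detected in these libraries, and the list summed to 10.1 and 177 CPM, against 1.81 to 27.8 CPM in the other 7. Between the fractions 2 of the 8 were tested, and edgeR called 1 without the block and 2 with it, all higher in HS3A8-low. Beside both lists, edgeR called 3.82% of all genes tested without the block and 11.6% with it. Those called higher in HS3A8-low were 3.21% and 8.27%. Epx, which defines eosinophils, had no count in 6 libraries, and all 511 of its counts lay in the others. The part of these cells in the values of Fcer1a, Mcpt8 and Prss34 was not tested.

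**Figure D3:**
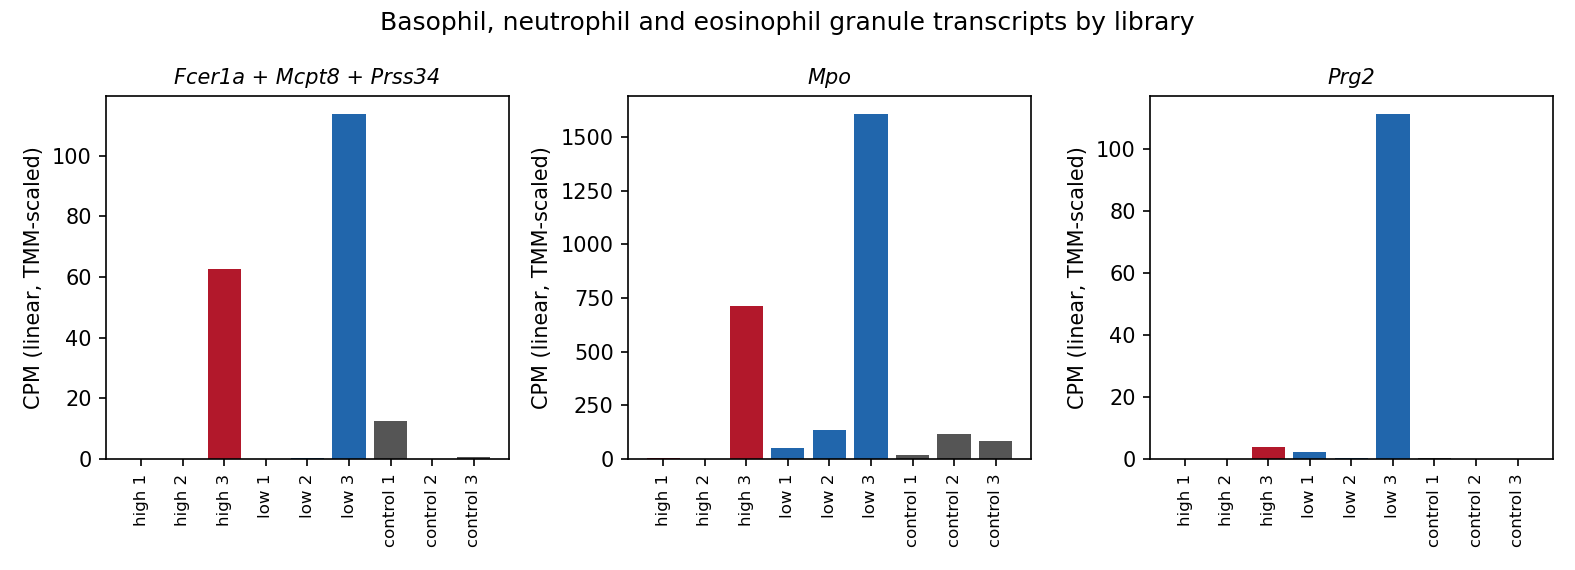
Bars give, for each of the 9 libraries, the summed level of Fcer1a, Mcpt8 and Prss34 and the levels of Mpo (neutrophils and monocytes) and Prg2 (eosinophils), in CPM on linear axes that start at 0 and differ between panels. The 2 replicate 3 libraries of the HS3A8 sort carry 62.7 and 114 CPM of the 3 summed genes and also the highest Mpo. Control replicate 1 has 12.6 CPM of the 3 genes with the lowest Mpo of the control.

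Hdc (chr2:126593667-126619299) encodes histidine decarboxylase, which makes histamine in mast cells and basophils and is also used by early granulocytes. It had 0.377, 0 and 12.9 CPM in HS3A8-high, 1.17, 4.50 and 24.6 CPM in HS3A8-low and 0.0941, 3.70 and 1.76 CPM in the control. Replicate 3 was the highest library of both fractions, and control replicate 1, the control library with the most Prss34, had 1 count of Hdc. Within replicate numbers Hdc was higher in HS3A8-low by 3.11 times, at least 19.9 times and 1.91 times, but the groups overlapped. The log2 fold change of HS3A8-high over HS3A8-low was -1.21 (SE 1.68, edgeR, adjusted p = 0.746) and blocked -2.03 (SE 0.80, adjusted p = 0.153). It changed sign, to 0.62, without HS3A8-low replicate 3.

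Mcpt8 and Gzmb lie 173.6 kb apart in the protease cluster of chromosome 14, with 7 protein-coding genes between them, and did not share a pattern. In the replicate 3 libraries, where Mcpt8 was at 18.5 and 34.2 CPM, Gzmb was at 0.265 and 1.51 CPM. In HS3A8-low replicate 1 Gzmb had 33 counts and Mcpt8 2.

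Il1rl1 (chr1:40429570-40465415) encodes ST2, the IL-33 receptor of mast cells, basophils and group 2 innate lymphoid cells. It had 82.2, 88.2 and 97.5 CPM in HS3A8-high, 82.4, 72.9 and 74.5 CPM in HS3A8-low and 71.6, 98.1 and 115 CPM in the control. All 3 groups overlapped. The log2 fold change of HS3A8-high over HS3A8-low was 0.19, with a 95% confidence interval of -0.05 to 0.44 (edgeR, adjusted p = 0.362), and it lay between 0.13 and 0.27 under all 14 alternatives run. Its level did not follow other genes of innate lymphoid cells: 7 such genes summed to 0.0752 to 3.83 CPM in HS3A8-high and 14.5 to 28.2 CPM in HS3A8-low, and of the 4 tested, edgeR called 0 without the block (4 at an unadjusted p under 0.05) and 2 with it, DESeq2 2 and voom 3. Of all 11791 genes tested, 2339 had an unadjusted p under 0.05 in edgeR without the block, and voom called 1490. Il1rl1 also did not follow Fcer1a, Mcpt8 and Prss34, being at 97.5 and 88.2 CPM in HS3A8-high replicates with 948 and 0 counts of them.

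Ms4a2 (chr19:11615523-11623719), the β chain of FcεRI and the subunit found mainly in mast cells and basophils, had 0.941, 1.58 and 0.661 CPM in HS3A8-high, 1.99, 1.83 and 3.95 CPM in HS3A8-low and 2.07, 0.510 and 1.54 CPM in the control. The fractions did not overlap, with 10 to 21 counts per library in HS3A8-high and 26 to 47 in HS3A8-low. Within replicate numbers 1, 2 and 3 it was 2.11, 1.16 and 5.97 times as high in HS3A8-low. The difference did not pass the test (log2 fold change -1.31, SE 0.51, edgeR adjusted p = 0.217, blocked 0.208). In contrast to Fcer1a, Ms4a2 was lower in HS3A8-high replicate 3 than in the other libraries of that fraction. In HS3A8-low, as for Fcer1a, replicate 3 was the highest library of Ms4a2. Of the 3003 stretches of 50 bases in its exons, 63 (2.10%) also occur in its relative Ms4a4b, so the split of those reads between the 2 genes is uncertain.

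The comparisons with the MPB49 control ask which fraction departs from total MEPs. Both use the same 3 control libraries. No member was called against the control by edgeR (0 of 6 tested for HS3A8-high, 0 of 7 for HS3A8-low), where 0.0174% and 0% of all genes were called, and 562 and 673 genes, among them 0 and 3 members, had an unadjusted p under 0.05. DESeq2 called 140 (0.986%) and 93 (0.672%) genes, with 0 and 3 members, and 0.657% higher in HS3A8-low than in the control. In HS3A8-low, Cpa3 was higher than in the control by 1.51 on the log2 scale (SE 0.24, 95% confidence interval 0.95 to 2.07), Lmo4 by 1.11 (SE 0.25, 0.53 to 1.68) and Fcer1g by 2.39 (SE 0.72, 0.70 to 4.09), and these are the 3 members that DESeq2 called, with adjusted p of 0.0001, 0.0294 and 0.0334, against 0.488, 0.547 and 0.717 from edgeR. The Fcer1g value was 1.10 without HS3A8-low replicate 3 (edgeR adjusted p = 0.821). They are also the 3 members whose libraries did not overlap between HS3A8-low and the control, where 10.1% of genes did not overlap and 6.38% did so with HS3A8-low higher. In HS3A8-high, Cpa3 was the member without overlap (10.9% of genes, and 6.28% higher in the control), with a log2 fold change over the control of -1.90 (SE 0.84, edgeR adjusted p = 0.733). Without HS3A8-high replicate 3 this value was -3.54. Il1rl1 differed from the control by -0.08 (95% confidence interval -0.57 to 0.42) in HS3A8-high and by -0.31 (-0.78 to 0.16) in HS3A8-low.

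Most defining genes of mature connective tissue and mucosal mast cells had no count. Mcpt1, Mcpt4, Tpsab1, Tpsb2 and Tpsg1, which encode mast cell chymases and tryptases, and the receptors Mrgprb1 and Mrgprb2 were at 0 in all 9 libraries, as was the cytokine Il13. Cma1, mast cell chymase, had 4 and 6 counts in HS3A8-low replicates 1 and 3 and none elsewhere. Mcpt2, a mucosal mast cell protease, had 2 counts in 1 HS3A8-high library and none elsewhere. Per library, 0 counts allow up to 0.282 CPM.

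The wider mast cell and basophil program was followed with 58 other genes in 6 roles, of which 37 were tested between the fractions. Of these, 8 were called (edgeR), all higher in HS3A8-low, and 22 with the block, again all higher in HS3A8-low, where 3.82% and 11.6% of all genes were called, 3.21% and 8.27% higher in HS3A8-low. The median log2 fold change of HS3A8-high over HS3A8-low of the 37 was -1.05, beside -0.03 for all genes tested, and 30 of 37 were below 0. Against the control, edgeR called 0 of them for either fraction, with 7 (HS3A8-high) and 13 (HS3A8-low) at an unadjusted p under 0.05, DESeq2 called 2 and 0, and voom 2 and 3. Over all genes, voom called 100 of 11486 for HS3A8-high and 287 of 11878 for HS3A8-low.

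Signalling from Fc receptors held 4 of the 8. Lat, the adaptor that links receptor to calcium signalling, had 2.89, 3.08 and 2.65 CPM in HS3A8-high, 23.3, 24.0 and 20.2 CPM in HS3A8-low and 16.5, 8.61 and 9.46 CPM in the control, with no overlap between groups and a log2 fold change between the fractions of -2.99 (SE 0.20, edgeR, adjusted p = 0.0071). Plcg2, which makes the calcium-releasing messenger, was at -1.46 (SE 0.22, adjusted p = 0.0257), the kinase Lyn, which phosphorylates FcεRI, at -0.78 (SE 0.13, adjusted p = 0.0287) and the exchange factor Vav1 at -0.52 (SE 0.09, adjusted p = 0.0307). The abundant Btk and Inpp5d, a kinase and a lipid phosphatase of the same pathway, were at -0.0019 and -0.09 with adjusted p of 0.995 and 0.794. Of the 13 genes of this role tested, 4 were called without and 10 with the block.

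Among the mediators, Slc18a2, the vesicular transporter that loads histamine and serotonin into granules, had 6.53, 4.14 and 7.08 CPM in HS3A8-high, 54.5, 48.8 and 35.6 CPM in HS3A8-low and 37.5, 21.7 and 22.7 CPM in the control, and its log2 fold change between the fractions was -2.99 (SE 0.27, edgeR, adjusted p = 0.0071). Replicate 3 was its lowest library in HS3A8-low, whereas it was the highest for Hdc. Alox5ap, which presents arachidonic acid for leukotriene synthesis, was at -2.42 (SE 1.06, adjusted p = 0.268) and blocked at -2.97 (SE 0.45, adjusted p = 0.0176), and Alox5 was at -0.39 (adjusted p = 0.652). Of granule genes, Srgn, the proteoglycan core that binds granule proteases, was called at -0.80 (SE 0.12, adjusted p = 0.0253) and the tetraspanin Cd63 at -1.28 (SE 0.24, adjusted p = 0.0392), while Lamp1 was at 0.06 and Ndst2, an enzyme that sulfates heparin and heparan sulfate, at 0.09. Lat, Plcg2, Slc18a2 and Srgn are also genes of megakaryocytes and platelets, whose list is given above, and the part of these cells was not tested.

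**Figure D4:**
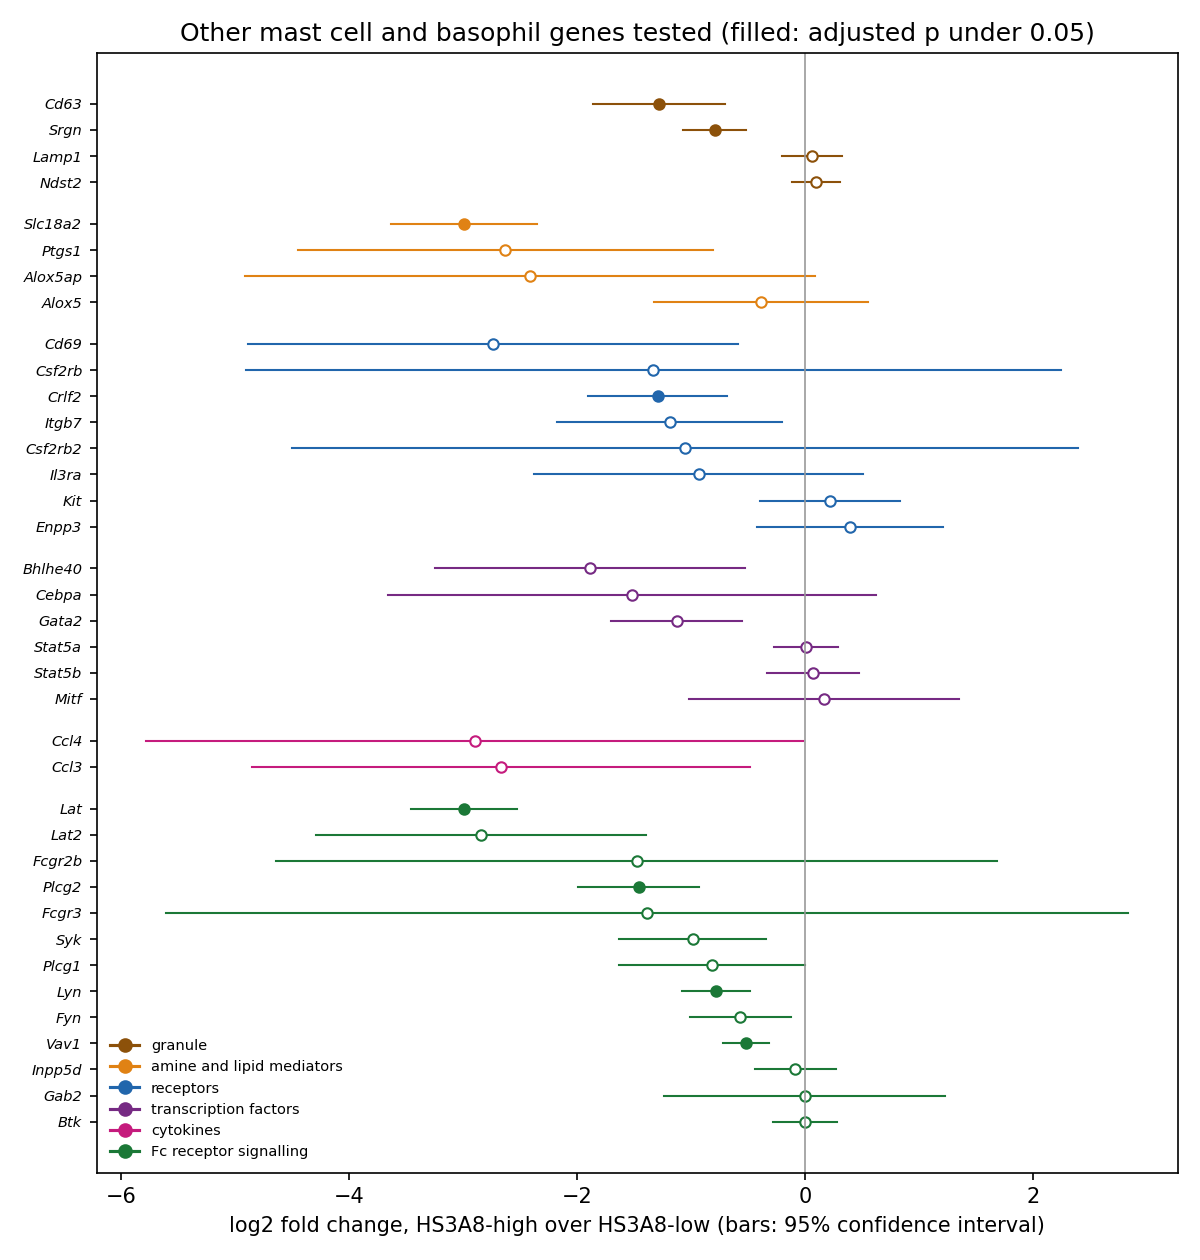
Log2 fold change of HS3A8-high over HS3A8-low (horizontal axis, edgeR without a block) with 95% confidence intervals for the 37 of 58 other mast cell and basophil genes that were tested, coloured by role. Filled symbols mark the 8 with an adjusted p under 0.05, all left of 0.

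Of the receptors, Crlf2, a subunit of the TSLP receptor, was called at -1.30 (SE 0.26, edgeR, adjusted p = 0.0451). Kit, the stem cell factor receptor on which mast cells depend, was at 0.22 (adjusted p = 0.706), and the integrin Itgb7, used by mast cell progenitors to enter tissue, at -1.19 (adjusted p = 0.174, blocked 0.0028). Gata2 had 141, 144 and 132 CPM in HS3A8-high, 404, 293 and 198 CPM in HS3A8-low and 164, 203 and 186 CPM in the control. Its fractions did not overlap, and its log2 fold change was -1.13 (SE 0.24, adjusted p = 0.0553) and blocked -1.07 (SE 0.17, adjusted p = 0.0186). Stat5a and Stat5b, which act below the IL-3 receptor and KIT, were at 0.01 and 0.07 (adjusted p of 0.976 and 0.872). Of the cytokines, Ccl3 and Ccl4 were at -2.67 and -2.90 (adjusted p of 0.169 and 0.250, blocked 0.0133 and 0.0446). Il4, the classical basophil cytokine, was at 0.234 to 2.07 CPM, highest in control replicate 1, and did not pass the count filter between the fractions.

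Genes most like each member over the 9 libraries were ranked by the root-mean-square difference of centred log2 CPM among the 9349 genes whose mean reached 5 CPM, as a description without a test. Fcer1g was closest to Ncf4 (0.289), Cd52 (0.297) and Irf8 (0.383), and Mcpt8 to Lyz2 (1.03), Igsf6 (1.07) and Csf1r (1.09). Prss34 was closest to Fn1 (1.45), Igsf6 (1.85) and Lyz2 (1.87), and Hdc to Anxa3 (0.752), Hk3 (0.762) and Prtn3 (0.844). Cpa3 was closest to Gng2 (0.362), Vim (0.493) and Rgs2 (0.525), and Lmo4 to Cerk (0.203), Spns3 (0.206) and A430078G23Rik (0.233). Il1rl1, whose own spread was small, was closest to Crnkl1 (0.0744), Elmod2 (0.0830) and Atp2c1 (0.103). The points share libraries and depth, and the nearest genes of Mcpt8 and Prss34 lay farther away than those of Cpa3.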

How the data were processed

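MEPs were sequenced in 9 libraries. STAR was run by the authors against the mm10 transcriptome, and the deposited table holds raw counts per gene, with nothing normalized. The submitters' processing notes name STAR 2.5 and HTSeq 0.6.1. The annotation release and whether the counting used strand are not given in the sources used here. Identifiers were joined to GENCODE mouse release M21 (34490 of 35275 matched), and CPM were divided by the length of merged exons for RPKM. No exon of a member overlapped another gene. Promoters are RefSeq's.

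Groups were compared by quasi-likelihood in edgeR 4.0.16 (R 4.3.3) with TMM, filterByExpr and Benjamini-Hochberg adjustment over all genes tested, with 2 groups in each fit. Alternatives were DESeq2 1.42.0 and its size factors, voom with quality weights (limma 3.58.1), a block for the replicate number, omission of each library in turn, all libraries fitted together, an adjusted p under 0.01, and genes kept without a filter or from a mean count of 10. Leaving out both replicate 3 libraries was chosen after seeing the data. The main test had no block. Replicate numbers were taken to pair the fractions only in the blocked fit and in the folds within replicate numbers. The reason was that deviations from the group mean correlated between same-numbered libraries (r of 0.345 to 0.517) and less between others (-0.482 to 0.114). The sources do not state this pairing, and the correlations came from the same counts that were tested. Deviations within a group cancel, so a positive r between same-numbered libraries pushes the others down.

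The members and lists were chosen with earlier results of these data known. Named were all members, the other mast cell and basophil genes called in any comparison or among the 3 highest by RPKM in their role, the 3 genes most like each member whose mean reached 5 CPM, and, of other cell types, the most abundant or defining genes and those that share a receptor or protease with a member. Fcer1a, Ms4a2 and Gzmb were below that minimum. The libraries' precision is set by their totals, given in the report.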

Additional observations from a re-analysis of the deposited data

How the results depend on the processing

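Between the HS3A8 fractions, edgeR called 1 member and 451 genes. The calls were 3 members and 1367 genes with the replicate block, 3 and 1224 with the DESeq2 test, 3 and 1490 with voom, 2 members with all 9 libraries in 1 fit, 0 and 33 at an adjusted p under 0.01, and 3 and 748 without both replicate 3 libraries. Leaving out 1 library gave 0 to 2 members and 0 to 439 genes. Cpa3 was called in 6, Lmo4 in 10, Fcer1g in 2 and Gzmb in 2 of 14 alternatives. Hdc ran from -5.60 to 0.62 with 1 library left out, turning without HS3A8-low replicate 3.

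Of HS3A8-high and the control, 2 genes were called by edgeR, 140 by DESeq2, 100 by voom, 9 without a count filter, 32 with all 9 libraries in 1 fit, 0 at an adjusted p under 0.01, and 0 to 5 with 1 library left out. Same-numbered libraries did not correlate there (r of -0.248 to -0.065, and -0.362 to 0.019 for HS3A8-low), and the replicate block gave 0 calls in either control comparison. Fcer1g turned to -1.01 with voom, -1.59 with the block and -3.06 without HS3A8-high replicate 3, and Hdc to -1.99 with voom and -3.20 without that library. With 1 library left out, Fcer1g ran from -3.06 to 0.88, Hdc from -3.20 to 2.22, Ms4a2 from -0.75 to 0.060 (turning without control replicate 1) and Il1rl1 from -0.25 to 0.10 (turning without control replicate 3). Of HS3A8-low and the control, edgeR called 0 genes, DESeq2 93 with 3 members and voom 287 with 3 members (Cpa3, Lmo4 and, lower in HS3A8-low, Il1rl1). Gzmb ran from -0.48 to 1.47 with 1 library left out, turning without HS3A8-low replicate 1 and without control replicate 2 or 3. None of these turned values was called. The cause was not tested. DESeq2 gave no adjusted p for Fcer1g, Mcpt8 and Prss34 between the fractions. Gzmb, Ms4a2 and Fcer1a rested on at most 33, 47 and 67 counts per library.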

Other observations

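The mock-sorted control can be set beside the mean of both fractions, since it stands for MEPs before the split. For Il1rl1 the mean of both fractions was 82.9 CPM and the control was at 71.6 to 115 CPM. For Lmo4 the mean was 16.5 CPM and the control was at 9.10 to 12.9 CPM, and for Cpa3 it was 11.1 CPM beside 6.16 to 8.37 CPM, so for both genes all 3 control libraries were below it. For Fcer1g the mean of both fractions was 28.2 CPM over all replicates, above the control range of 6.53 to 12.2 CPM, and 9.71 CPM over replicates 1 and 2, beside 7.33 and 12.2 CPM in the control libraries of those numbers. Prss34 had a mean of 19.1 CPM over all replicates and 0 over replicates 1 and 2, where the control libraries had 9.12 and 0.0638 CPM. These differences were not tested.

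The share of the summed level of all 10 members that came from Fcer1a, Mcpt8 and Prss34 was 28.6% and 31.5% in the replicate 3 libraries of HS3A8-high and HS3A8-low, 10.3% in control replicate 1 and at most 0.417% in the other 6 libraries.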
